A study of Homo sapiens with 12 samples.

Results

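AGS cells, a human gastric adenocarcinoma line of epithelial origin, were compared with and without cantharidin sodium across all genes of an RNA-seq count matrix. The comparison used the 6 AGS libraries of a series of 12, 3 from AGS cells treated with cantharidin sodium and 3 from untreated AGS cells. The remaining 6 libraries came from a second gastric cancer line, MKN1, treated and untreated in the same way, and enter only where the response is set against that line. The members were taken by column name, with no use of measured values. Both groups are the same unmodified line, grown in serum-supplemented RPMI-1640, so no allele or transgene separates them. The series' design text calls the 3 samples of a group biological replicates, the sources used here give neither dose nor duration of treatment, and the labels name no vehicle for the untreated cells. The comparison asks which transcripts differ between treated and untreated AGS cells.

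Cantharidin is the terpenoid toxin of blister beetles, and cantharidin sodium is a salt made from it. Cantharidin binds the catalytic subunits of the serine/threonine phosphatases PP2A and, less tightly, PP1, and blocks their activity. PP2A opposes many kinase pathways, among them the ERK cascade, and as part of the STRIPAK complex it restrains the Hippo kinases that hold the coactivators YAP and TAZ out of the nucleus. Transcript levels report on neither phosphatase activity nor protein phosphorylation.

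Treated libraries held 32772339, 39744350 and 35717586 counts, and untreated libraries held 51604215, 34890634 and 40052774. Levels are counts per 1000000 library counts (CPM) after trimmed-mean scaling, listed for replicates 1, 2 and 3 in that order, and a level of 3 counts stood for 0.0581 to 0.0915 CPM. Pearson correlations of log2 CPM were 0.9933 to 0.9945 among treated libraries, 0.994 to 0.9952 among untreated ones and 0.9779 to 0.9832 between the groups. The first principal component carried 67.14% of the variance and separated all treated from all untreated libraries. All 10 simple gastric epithelium markers were present in every library, with EPCAM, an epithelial adhesion molecule, at 424, 458 and 421 CPM in treated cells and 422, 423 and 432 CPM in untreated cells. All 7 squamous epithelium markers lay below 1 CPM in every library. Blood cell transcripts set the groups apart at a low level. HBB, a globin gene of red cells, had 0, 0.0760 and 0 CPM in treated cells, against 18.6, 8.44 and 6.76 CPM in untreated cells, and HBA1, HBA2 and PTPRC were at 0 in all treated libraries. Untreated replicate 3 also stood apart for a set of receptor genes that the other libraries hardly held. NTRK2 had 13.975 CPM there and at most 0.426 CPM in each of the other 5 libraries, and ROS1 had 9.002 CPM there and at most 0.682 CPM elsewhere. Summed fibroblast markers lay at 62.0 to 82.0 CPM in treated libraries, against 60.2 to 70.0 CPM in untreated libraries, with 4 of 7 below 1 CPM in all 6 libraries and 2 higher and 2 lower of 4 tested. Summed blood cell markers, nearly all from LYZ, a gene also found in gastric epithelium, lay at 1004 to 1452 CPM in treated libraries, against 1050.0 to 1577 CPM in untreated libraries, with 3 of 4 tested lower. Summed endothelial markers lay at 0.03 to 0.36 CPM in treated libraries, against 0.597 to 4.565 CPM in untreated libraries. The part of these low-level transcripts in the results was not tested. Without untreated replicate 3 the number of genes past the threshold was 7342, against 8368 with all libraries. Leaving out each of the 6 libraries in turn, this one included, gave 7146 to 7577. HBB was present in all untreated libraries, so leaving out 1 of them does not address it.

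Of 17345 genes tested, 8368 passed an adjusted p of 0.05 (48.2%), with 4040 higher (23.3%) and 4328 lower (25.0%) in treated cells. This was edgeR's quasi-likelihood test with Benjamini-Hochberg adjustment over all tested genes, and "passed", "rose" and "fell" refer to it throughout, with sizes after "rose by" and "fell by" on the log2 scale. The p-values measure the spread between these 3 samples of each group. Most changes were small. The median absolute log2 fold change of the genes that passed was 0.53, and 1599 of them (9.22% of tested genes) changed by at least 1 on the log2 scale, 698 upwards (4.02%) and 901 downwards (5.19%). Treated and untreated CPM did not overlap for 58.7% of tested genes, 28.9% higher and 29.8% lower in treated cells. Where at least 5 CPM in 3 libraries was required, 348 genes changed by at least 1, 199 upwards and 149 downwards, so the balance at this size depended on rare genes. Among all tested genes, decreases outnumbered increases further as the change grew. At a log2 fold change of at least 2 there were 68 higher and 272 lower genes, and at 3 or more 11 higher and 97 lower. Of these 97, 55 averaged under 1 CPM in untreated cells and 12 were at 0 in all treated libraries. Only 4 averaged at least 10 CPM in untreated cells, so most of the deepest drops lie among rare transcripts. HBB (18.6, 8.44 and 6.76 CPM in untreated cells) and TSPOAP1 (16.2, 14.1 and 13.1 CPM) dropped from higher levels. Fitted together with the MKN1 libraries, where 20280 genes were tested and the spread was shared by both lines, 4214 genes passed in AGS. CPM is a share of a library, so a lower share from fewer cells of a kind and one from less RNA per cell cannot be told apart.

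**Figure D1:**
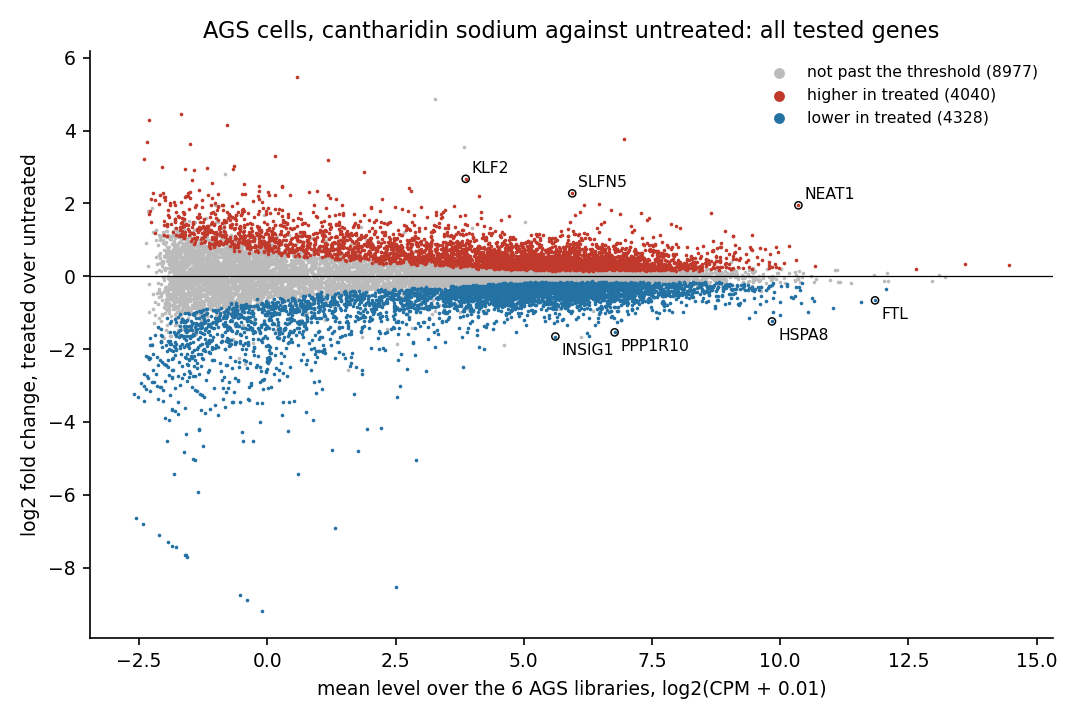
Each point is 1 of 17345 tested genes. The horizontal axis is the mean level over the 6 AGS libraries as log2(CPM + 0.01), and the vertical axis is the fitted log2 fold change of treated over untreated cells. Red points (4040) are higher and blue points (4328) lower past an adjusted p of 0.05, and most of the largest drops sit at the low-level end of the plot.

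The response ran along the base composition of transcripts. When tested genes were ranked by transcript GC content and cut into 5 equal bins, 39.1% of the lowest bin were higher and 9.42% lower in treated cells, with a median log2 fold change of 0.19. In the highest bin, 10.6% were higher and 42.6% lower, with a median of −0.27. The 3 bins between them had medians of 0.11, 0.0087 and −0.12, so that the order was the same at every step. By transcript length, the bins from shortest to longest had medians of −0.024, −0.086, −0.052, 0.039 and 0.10, without a steady order. The share higher did rise at every step of length, at 15.4%, 18.4%, 20.4%, 27.7% and 34.7%. The share lower, at 21.9%, 29.5%, 29.5%, 25.0% and 19.0%, had no steady order. Chromosome 19, whose tested genes had a median GC content of 58.0%, had 130 higher and 521 lower among 1271 genes. Chromosome 4, with a median GC content of 42.95%, had 196 higher and 76 lower among 569. Whether this order lies in the cells or in library preparation was not tested. After each library's trend with GC content and length was taken out, 8123 genes passed, 6470 of them in common and in the same direction, while 3 passed in the opposite direction. Where the exons of 2 genes overlap, reads may be split between them. Among genes named for their role, XPC (30.4% of exon bases), HSPA1B (36.5%), CCNE2 (37.1%), DDIT3 (39.6%), DUSP6 (40.5%), BCL2L1 (43.0%), CDK4 (43.2%), SRSF9 (46.2%), TYMS (46.6%), CTSD (52.7%) and STK24 (63.5%) are uncertain for this reason.

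Of the genes for the phosphatases that cantharidin binds, those of the PP2A catalytic subunits moved little, and PPP1CA of PP1 moved more. PPP2CA, which encodes the main PP2A catalytic subunit, had 299, 299 and 306 CPM in treated cells, against 299, 284 and 298 CPM in untreated cells, and PPP2CB, its close relative, had 152, 163 and 150.2 CPM in treated cells, against 152, 153 and 156 CPM in untreated cells. Neither passed (adjusted p = 0.617 and 0.841), and the groups overlapped for both. Among PP1 catalytic subunits, PPP1CA fell (log2 fold change −0.64, SE 0.10, adjusted p = 0.000725), with 26.9% of exon bases overlapping another gene, PPP1CC fell by 0.26 and PPP1CB rose by 0.24 on the log2 scale. PPP1CB did not pass after the GC and length trends were taken out (adjusted p = 0.613), and neither PPP1CB nor PPP1CC passed with the MKN1 libraries in the fit (adjusted p = 0.0935 and 0.0844).

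Around these catalytic subunits, 51 PP2A, PP1 and STRIPAK genes were tested, of which 11 rose, 19 fell and 21 did not pass, with a median log2 fold change of −0.077. Of all tested genes, 23.3% rose and 25.0% fell. PPP1R10, which encodes the nuclear PP1 regulator PNUTS that holds PP1 at transcribing RNA polymerase II, had the largest change, at 53.9, 55.8 and 57.8 CPM in treated cells, against 174, 149 and 164 CPM in untreated cells (log2 fold change −1.54, SE 0.071, adjusted p = 4.96e-06). PPP2R1A, the PP2A scaffold subunit, fell by 0.70 and PPP6R1, a regulatory subunit of PP6, fell by 0.72. PPP1R12B, a myosin phosphatase targeting subunit, rose to 31.6, 30.5 and 30.9 CPM in treated cells, against 16.3, 18.7 and 15.7 CPM in untreated cells. STRIPAK members STRN, STRIP2, SIKE1, STK24 and STK26 rose by 0.25 to 0.51, while STRN3, STRN4, MOB4 and STK25 did not pass. For the whole list, 3 rose and 10 fell when the fit included the MKN1 libraries, and STRN, STRIP2, SIKE1 and STK26 were among those lost.

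Cholesterol synthesis was lower throughout. All 20 sterol synthesis enzyme genes fell in treated cells, against 25.0% of all tested genes, with log2 fold changes of −1.64 to −0.24 and a median of −0.86, where the median over all tested genes was 8e-04. Sterol synthesis starts from acetyl-CoA, passes through mevalonate and isoprenoid units to squalene and lanosterol, and ends at cholesterol, and its genes are induced by the transcription factor SREBF2 when membrane sterol is low. ACAT2, which joins acetyl-CoA units at the entry of the pathway, had 33.9, 27.4 and 36.6 CPM in treated cells, against 79.4, 78.5 and 87.7 CPM in untreated cells, although 52.3% of its exon bases overlap another gene. HMGCS1, the next enzyme, fell by 0.96 on the log2 scale. MVK, the mevalonate kinase, had 6.95, 6.73 and 8.13 CPM in treated cells, against 18.7, 18.8 and 20.6 CPM in untreated cells (log2 fold change −1.41, SE 0.11, adjusted p = 2.39e-05). IDI1, which interconverts the isoprenoid building blocks, had 38.0, 35.8 and 41.7 CPM in treated cells, against 110.2, 112 and 116 CPM in untreated cells. Along the later steps, FDFT1 and SQLE, which make and oxidise squalene, fell, with log2 fold changes of −0.78 and −0.99, and LSS, which closes the ring to lanosterol, fell by 0.97. The largest change stood at the end of the pathway. DHCR7 (ENSG00000172893, GRCh38 chr11:71428193-71452868, minus strand), the reductase of the last step, had 37.2, 33.9 and 41.6 CPM in treated cells, against 119.9, 109 and 121 CPM in untreated cells (log2 fold change −1.64, SE 0.083, adjusted p = 5.85e-06). In none of the 4 enzymes with values by library did a treated library reach an untreated one. All 20 genes also fell once the GC and length trends were taken out, and 17 fell when the MKN1 libraries were included in the fit, with FDPS among those lost.

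The promoters of 3 such genes and of HSPA8, a chaperone gene described next, are shown because these genes fell together and their promoters carry repeated short boxes. Each is the stretch of 250 bases before the start of the RefSeq transcript in GRCh38.p14, read along the gene's strand. Capitals mark matches to CCAAT, to GAANNTTC (the core of a heat shock element) or to CACCCCAC (the core of a sterol response element), on either strand. MVK lies at chr12:109573544-109573793 on the plus strand, DHCR7 at chr11:71448394-71448643 on the minus strand, FDPS at chr1:155308616-155308865 on the plus strand and HSPA8 at chr11:123062137-123062386 on the minus strand.
MVK: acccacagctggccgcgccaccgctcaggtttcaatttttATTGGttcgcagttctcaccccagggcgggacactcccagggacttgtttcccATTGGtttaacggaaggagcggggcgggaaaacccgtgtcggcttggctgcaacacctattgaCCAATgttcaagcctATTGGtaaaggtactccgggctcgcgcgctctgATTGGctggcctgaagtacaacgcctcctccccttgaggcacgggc
DHCR7: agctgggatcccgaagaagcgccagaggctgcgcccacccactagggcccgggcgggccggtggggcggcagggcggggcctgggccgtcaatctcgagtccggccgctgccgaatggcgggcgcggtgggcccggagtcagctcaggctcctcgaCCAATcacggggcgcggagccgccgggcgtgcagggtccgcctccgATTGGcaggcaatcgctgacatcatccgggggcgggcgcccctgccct
FDPS: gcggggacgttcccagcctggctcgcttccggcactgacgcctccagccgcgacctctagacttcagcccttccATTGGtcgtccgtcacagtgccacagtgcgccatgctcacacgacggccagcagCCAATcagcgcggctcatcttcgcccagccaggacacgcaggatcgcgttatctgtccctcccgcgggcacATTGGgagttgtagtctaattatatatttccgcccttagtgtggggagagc
HSPA8: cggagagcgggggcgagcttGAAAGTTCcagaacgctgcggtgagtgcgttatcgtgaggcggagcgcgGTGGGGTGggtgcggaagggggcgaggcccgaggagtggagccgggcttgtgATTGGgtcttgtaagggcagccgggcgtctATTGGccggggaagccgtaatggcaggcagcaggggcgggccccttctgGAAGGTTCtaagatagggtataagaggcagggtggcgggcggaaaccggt
The start of DHCR7 in RefSeq lies inside the longer GENCODE 29 span given for the gene.
MVK had 5 CCAAT boxes in these bases, FDPS 3 and DHCR7 2, and HSPA8 had 2 heat shock cores, 2 CCAAT boxes and 1 sterol response core. Over windows of 300 bases (50 of them past the start), CCAAT in either orientation was present in 12 of the 15 sterol synthesis promoters in the RefSeq table (80.0%), against 36.7% of 11464 promoters of tested genes and 35.7% of all 27305 promoters. The heat shock core was present in 8 of 26 promoters of heat shock and chaperonin genes (30.8%), against 4.81% of promoters of tested genes and 6.87% of all promoters. CACCCCAC was present in 0 of the 15 sterol synthesis promoters, against 2.72% of all promoters. CCAAT was also present in 40.4% of promoters of genes that fell and 33.2% of promoters of genes that rose. The IDI1 promoter held no CCAAT box. Other short motifs were counted in the same windows. GGGCGG was present in 14 of the 15 sterol synthesis promoters (93.3%) and 80.8% of heat shock and chaperonin ones, against 67.8% of promoters of tested genes. Among sterol synthesis promoters, TATAAA was in 6.67%, CACGTG in 13.3% and TGACGTCA in 0, against 6.25%, 9.98% and 3.11%. None of the 3 marked motifs overlaps another in the printed bases, and a match describes the sequence only.

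Genes that sense, take up and export sterols were split. Of 16 tested, 5 rose (31.25%, against 23.3% of all tested genes) and 7 fell (43.75%, against 25.0%), with a median of −0.022. INSIG1, which anchors the SREBP processing complex in the endoplasmic reticulum and is itself an SREBP target, had 26.0, 21.6 and 23.4 CPM in treated cells, against 76.9, 71.4 and 74.9 CPM in untreated cells (log2 fold change −1.65, SE 0.076, adjusted p = 4.96e-06). STARD4, a cytosolic sterol carrier, fell by 0.62, and SREBF1 fell by 0.48, while SREBF2 rose by 0.21. MBTPS2, the protease that releases SREBP from the membrane, rose to 54.9, 62.7 and 61.8 CPM in treated cells, against 34.6, 34.3 and 34.5 CPM in untreated cells, and ABCA1, which exports cholesterol, rose by 0.49. The count of genes that rose was 2 in the fit with the MKN1 libraries, where STARD4 (adjusted p = 0.235), SREBF2 and ABCA1 did not pass.

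Of 15 fatty acid synthesis genes, 4 rose (26.7%, against 23.3% of all tested genes) and 5 fell (33.3%, against 25.0%). FASN, the fatty acid synthase, had 124, 108 and 128 CPM in treated cells, against 259, 256 and 283 CPM in untreated cells (log2 fold change −1.15, SE 0.079, adjusted p = 1.65e-05), and ACLY, which supplies cytosolic acetyl-CoA, fell by 0.54. ACACB, an acetyl-CoA carboxylase, fell by 0.60, whereas ACACA and the desaturase SCD, with log2 fold changes of 0.054 and −0.15, did not pass. ACSL4, which activates long polyunsaturated fatty acids, rose to 87.1, 109 and 92.8 CPM in treated cells, against 64.5, 70.6 and 64.4 CPM in untreated cells, and did not pass with the MKN1 libraries in the fit.

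**Figure D2:**
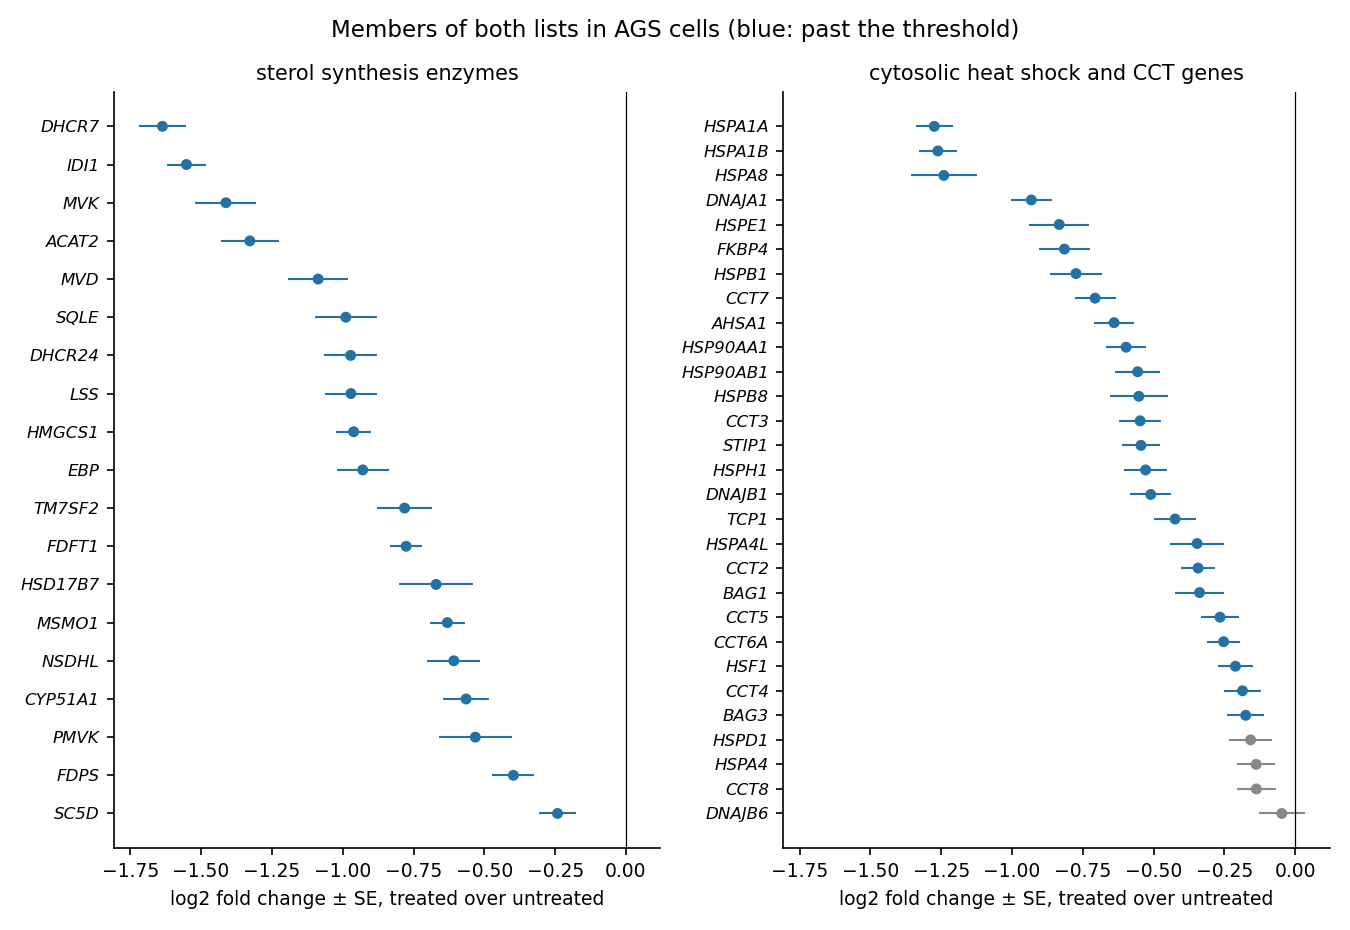
Fitted log2 fold change of treated over untreated AGS cells (horizontal axis) for 19 of the 20 tested sterol synthesis enzymes (left) and each gene of the heat shock and chaperonin list (right), with the standard error as a bar. The right panel is headed cytosolic but includes the mitochondrial HSPD1 and HSPE1. All 19 sterol genes shown and 25 of the 29 genes of the other list are drawn in blue, past the threshold, and all points lie below 0.

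Heat shock and chaperonin genes, most of them cytosolic, fell almost as widely. The list holds HSP70, HSP90 and small heat shock proteins, which fold or hold client proteins and of which many are induced by HSF1 on heat and proteotoxic stress, and the CCT ring that folds actin and tubulin. It also counts the mitochondrial chaperonin genes HSPD1 and HSPE1, and cofactor genes such as STIP1, AHSA1, BAG1 and BAG3. Of 29 genes, 0 rose and 25 fell (86.2%, against 25.0% of all tested genes), with a median log2 fold change of −0.53. HSPA8, the constitutive HSP70 and among the most abundant of these transcripts, had 458, 518 and 658 CPM in treated cells, against 1304, 1283 and 1274 CPM in untreated cells (log2 fold change −1.24, SE 0.12, adjusted p = 5.24e-05). The stress-inducible pair HSPA1A and HSPA1B lay lower too, HSPA1A at 28.1, 29.02 and 27.8 CPM in treated cells and 69.1, 63.7 and 72.7 CPM in untreated cells. HSPA1B had 51.1, 51.5 and 52.4 CPM in treated cells, against 126, 114 and 131 CPM in untreated cells. Their sequences are near identical, so reads may be split between them. DNAJA1, an HSP40 partner of HSP70, fell by 0.93, HSP90AA1 fell by 0.60, and the CCT subunit CCT7 fell by 0.71. HSF1 itself fell by 0.21, and HSPD1, HSPA4, CCT8 and DNAJB6 did not pass. With the MKN1 libraries in the fit, 16 fell and 0 rose, and HSP90AA1 and HSF1 did not pass.

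Of 25 chaperone and folding genes of the endoplasmic reticulum, 7 rose (28%, against 23.3% of all tested genes) and 13 fell (52%, against 25.0%). The median was −0.19. Among luminal chaperones and foldases, CALR, the calcium-binding lectin calreticulin, had 641, 620.4 and 716 CPM in treated cells, against 1359, 1327 and 1432 CPM in untreated cells (log2 fold change −1.06, SE 0.074, adjusted p = 1.77e-05). SDF2L1, MANF and CRELD2, secreted or luminal products of the unfolded protein response, fell, with log2 fold changes of −1.53, −1.13 and −1.10. SDF2L1 was the lowest of them, at 4.796, 4.61 and 5.24 CPM in treated cells, against 12.99, 14.6 and 14.7 CPM in untreated cells. HSPA5 and HSP90B1, the BiP and GRP94 genes, had log2 fold changes of −0.10 and −0.04 and did not pass. The stress sensors ERN1 and ATF6 rose by 0.54 and 0.65, and ERO1B, a luminal oxidase for disulfide bonds, by 0.92, but ERN1 did not pass with the MKN1 libraries in the fit.

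Protein degradation and mitochondrial respiration genes fell as blocks of small changes. Of 45 proteasome genes, 2 rose and 32 fell (71.1%, against 25.0% of all tested genes), with a median of −0.34. PSMA7, a core ring subunit, had 164, 148 and 156 CPM in treated cells, against 258, 247 and 278 CPM in untreated cells, PSMB7 fell by 0.70 and PSMB3 fell by 0.68. PSMG4, an assembly chaperone, was among the 2 that rose, with 17.5, 14.1 and 14.5 CPM in treated cells and 8.83, 8.90 and 9.97 CPM in untreated cells. Only 1 rose without treated replicate 2 or untreated replicate 2. Of 37 nuclear genes of respiratory complex I, 1 rose and 25 fell (67.6%, median −0.45). Of 47 matched to complexes III to V, some of them pseudogenes, 1 rose and 34 fell (72.3%, median −0.42). Without untreated replicate 3, 2 complex I genes rose. NDUFA2, an accessory subunit of complex I, had 20.6, 18.5 and 21.0 CPM in treated cells, against 32.3, 32.7 and 39.3 CPM in untreated cells. COX6B1, a subunit of cytochrome c oxidase, had 98.3, 79.7 and 86.6 CPM in treated cells, against 164, 159 and 191 CPM in untreated cells (log2 fold change −0.96, SE 0.095, adjusted p = 6.66e-05). UQCRH of complex III and ATP5MK of the ATP synthase fell, with log2 fold changes of −0.67 and −0.69. After the GC and length trends were taken out, 23 complex I genes, 33 of complexes III to V and 33 proteasome genes fell, and with the MKN1 libraries in the fit 16, 26 and 21 did.

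Of the 13 protein-coding genes of the mitochondrial genome, 2 rose (15.4%, against 23.3% of all tested genes) and 1 fell (7.69%, against 25.0%). MT-CO1, which encodes a core cytochrome c oxidase subunit, rose to 25498, 25671 and 23267 CPM in treated cells, against 20081, 20673 and 19708 CPM in untreated cells (log2 fold change 0.30, SE 0.076, adjusted p = 0.00936). MT-ND1 fell by 0.34 and MT-ND4L rose by 0.27, although MT-ND4L did not pass without treated replicate 1, untreated replicate 1 or untreated replicate 3. The other 10 did not pass, and 5 fell without treated replicate 1. After the GC and length trends were taken out, 1 rose and 8 fell, and with the MKN1 libraries in the fit none of the 13 passed.

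Ribosomal proteins shifted downwards by small steps. Of 79 cytosolic ribosomal protein genes, 0 rose and 35 fell (44.3%, against 25.0% of all tested genes), with a median of −0.21. RPS26, a protein of the small subunit, had 152, 148 and 163 CPM in treated cells, against 259.9, 252 and 303 CPM in untreated cells, and RPS15 fell by 0.68. This count moved with single libraries. It was 23 without treated replicate 2, 22 without untreated replicate 1, 21 without untreated replicate 3 and 3 with the MKN1 libraries in the fit. Copies of these genes elsewhere in the genome may share their reads. Of 78 mitochondrial ribosomal protein genes, 7 rose (8.97%) and 36 fell (46.2%). For this list, 2 rose and 17 fell with the MKN1 libraries in the fit. MRPL27 had 20.3, 18.9 and 19.8 CPM in treated cells, against 34.6, 31.1 and 38.4 CPM in untreated cells.

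Most glycolytic enzyme genes fell. Of 21 genes, 4 rose (19.0%, against 23.3% of all tested genes) and 12 fell (57.1%, against 25.0%), with a median of −0.35. GAPDH had 2349, 2193 and 2379 CPM in treated cells, against 3785, 3465 and 4114 CPM in untreated cells, PKM, the pyruvate kinase, had 1488, 1507 and 1454 CPM in treated cells, against 2493, 2609.6 and 3036 CPM in untreated cells, and ALDOA fell by 0.98, with 53.5% of exon bases overlapping another gene. All of the enzymes from ALDOA through TPI1, GAPDH, PGK1, PGAM1, ENO1 and PKM to LDHA fell. HK2, the hexokinase that traps glucose, rose to 225, 222 and 215 CPM in treated cells, against 122, 117 and 109 CPM in untreated cells (log2 fold change 0.93, SE 0.062, adjusted p = 1.6e-05), and SLC2A1, the glucose transporter, rose to 1237, 1391 and 1016 CPM in treated cells, against 635, 826 and 848 CPM in untreated cells. ALDOC, at 13.7, 6.53 and 7.52 CPM in treated cells and 16.6, 15.1 and 16.3 CPM in untreated cells, did not pass without treated replicate 3 or untreated replicate 3, or with the MKN1 libraries in the fit.

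The pentose phosphate pathway and the antioxidant genes that the transcription factor NRF2 drives had 3 higher and 15 lower of 26 (median −0.42). The shares were 11.5% and 57.7%, against 23.3% and 25.0% of all tested genes. OSGIN1, an oxidative stress response gene, had 10.1, 11.9 and 11.8 CPM in treated cells, against 31.0, 29.1 and 32.2 CPM in untreated cells (log2 fold change −1.45, SE 0.09, adjusted p = 1.27e-05). HMOX1, the heme oxygenase, fell by 1.15, and the glutathione peroxidase GPX2 fell by 1.04. In the pentose phosphate pathway, TKT fell by 0.80. KEAP1, which targets NRF2 for degradation, fell by 0.82 as well, and GCLC, which starts glutathione synthesis, rose by 0.42. NQO1 and TXNRD1, with 0.061 and 0.076, did not pass. Of 25 tricarboxylic acid cycle genes, 4 rose (16%, against 23.3% of all tested genes) and 11 fell (44%, against 25.0%). CS, the citrate synthase, fell by 0.40, OGDH fell by 0.54, and SUCLA2 rose by 0.36. With the MKN1 libraries in the fit 4 of them fell, and neither SUCLA2 nor GCLC passed.

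**Figure D3:**
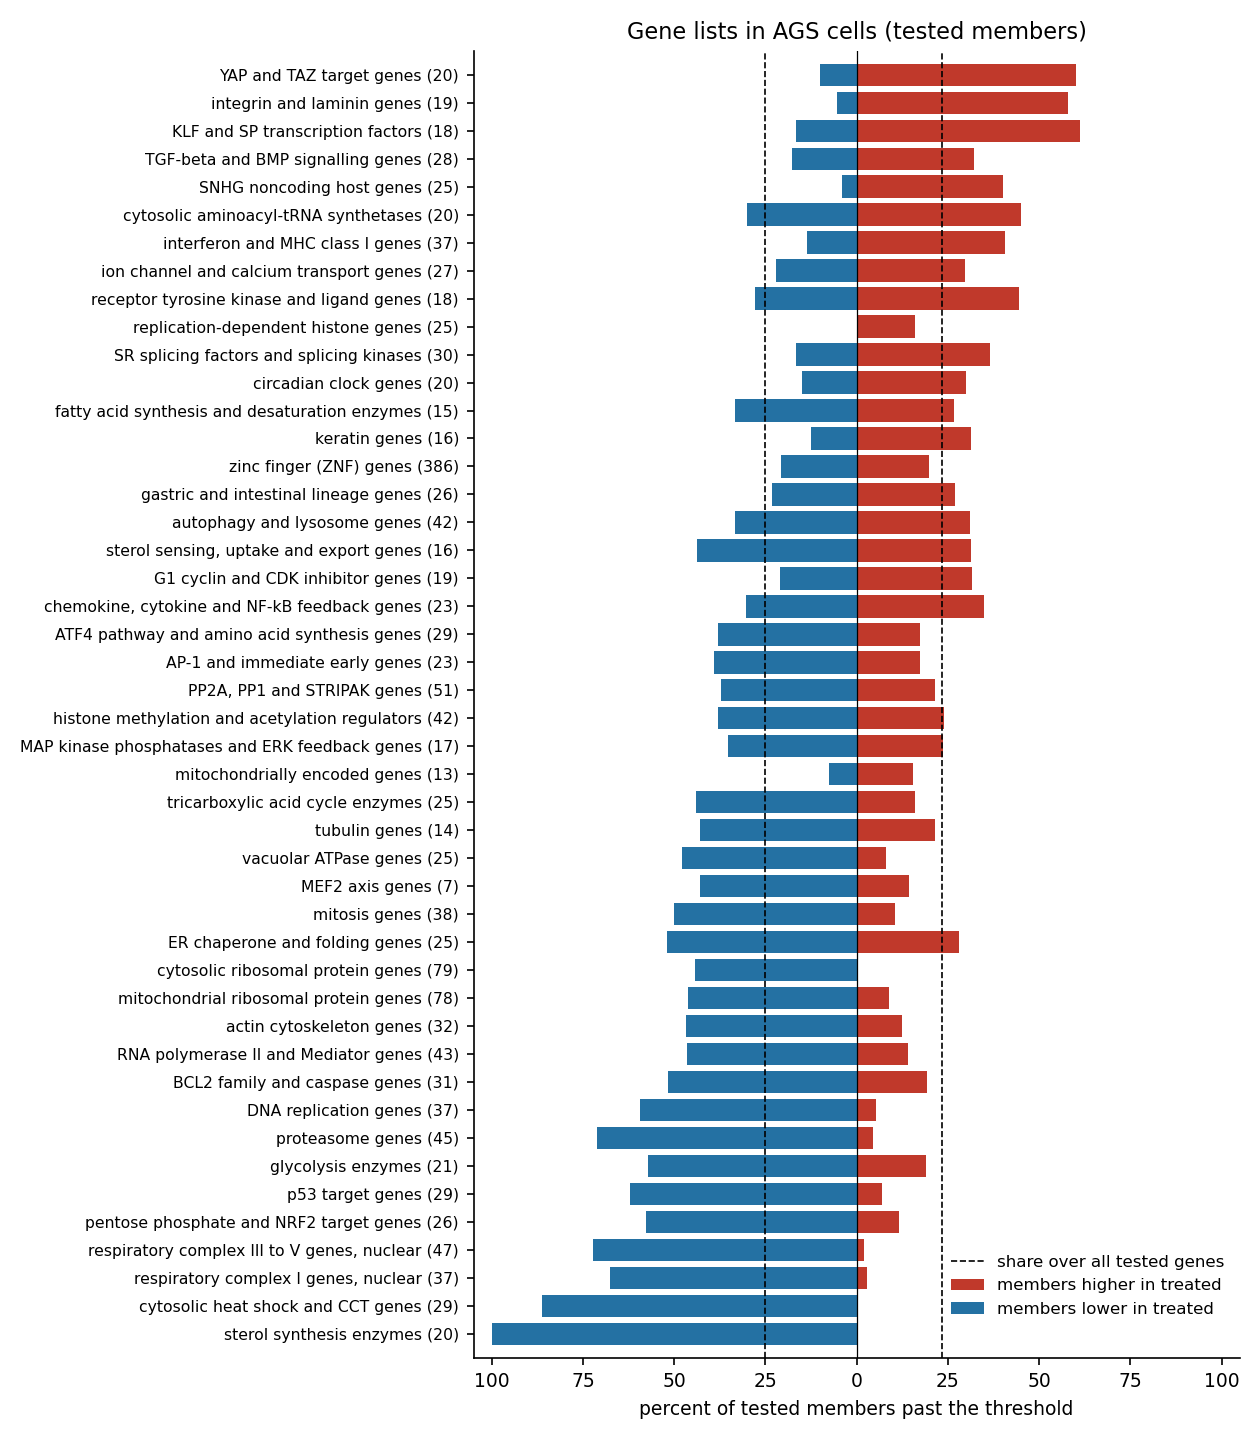
Share of the tested members of each gene list that rose (red, to the right) or fell (blue, to the left) in treated AGS cells past an adjusted p of 0.05, with the number of tested members in brackets and lists ordered by median log2 fold change. Dashed lines mark the shares over all tested genes, 25.0% lower and 23.3% higher; sterol synthesis enzymes (100% lower) stand at the bottom and YAP and TAZ targets (60% higher) at the top.

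Genes that YAP and TAZ are known to induce through TEAD factors lay at the other end. Of 20 tested, 12 rose (60%, against 23.3% of all tested genes) and 2 fell, with a median of 0.31. CCN2, a matricellular protein, had 71.6, 182 and 89.4 CPM in treated cells, against 14.1, 38.6 and 36.5 CPM in untreated cells (log2 fold change 1.95, SE 0.41, adjusted p = 0.00336). ANKRD1, a muscle and stress ankyrin-repeat protein, had 200.02, 315 and 207 CPM in treated cells, against 48.1, 95.0 and 74.9 CPM in untreated cells. Treated replicate 2 was the highest library for both, and the groups did not overlap. CRIM1, a BMP-binding membrane protein, was steadier, with 88.5, 93.1 and 78.2 CPM in treated cells, against 35.4, 43.3 and 38.5 CPM in untreated cells (log2 fold change 1.15, SE 0.09, adjusted p = 2.55e-05). F3, the tissue factor gene, rose by 1.06, TEAD1 by 0.61 and CCN1 by 0.51, whereas AMOTL1, AMOTL2, LATS2 and AJUBA did not pass. IGFBP3 was also counted as higher, at 1.64, 0.734 and 0.860 CPM in treated cells and 0, 0.0568 and 0.128 CPM in untreated cells. It is abundant in MKN1 (mean 3745 CPM), and the part of MKN1-derived reads in that value was not tested. NUAK2, a kinase, fell by 0.64. In the fit with the MKN1 libraries 8 rose, and CCN1 did not pass.

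Integrins and laminins, the receptors and substrate of epithelial adhesion to basement membrane, had 11 higher and 1 lower of 19, with a median of 0.29. These are 57.9% and 5.26%, against 23.3% and 25.0% of all tested genes. ITGA2, a collagen receptor chain, had 636, 939 and 659 CPM in treated cells, against 309, 394 and 330.3 CPM in untreated cells, but did not pass with the MKN1 libraries in the fit (adjusted p = 0.0894). ITGA6, a laminin receptor chain, had 934, 1079 and 941 CPM in treated cells, against 560.0, 622 and 554 CPM in untreated cells. ITGA3 rose by 0.94, ITGB1 by 0.62, ITGB4 by 0.59 and the laminin chain LAMA5 by 0.60. LAMA1, at 0.304, 0.202 and 0.277 CPM in treated cells and 0.777, 0.568 and 0.740 CPM in untreated cells, was the only member that fell, and 4 fell without treated replicate 2.

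Actin and tubulin genes were more often lower than higher. Of 32 actin cytoskeleton genes, 4 rose (12.5%, against 23.3% of all tested genes) and 15 fell (46.9%, against 25.0%), with a median of −0.21. MYL6 and MYL9, myosin light chains, fell, with log2 fold changes of −1.14 and −0.92, and TAGLN2 had 456, 512 and 493 CPM in treated cells, against 852, 916 and 1138 CPM in untreated cells. VCL, which couples integrins to actin, rose by 0.40 but did not pass with the MKN1 libraries in the fit. Both ACTB and ACTG1, the cytoplasmic actins, failed to pass (0.031 and −0.16). Of 14 tubulin genes, 3 rose (21.4%, against 23.3% of all tested genes) and 6 fell (42.9%, against 25.0%). TUBB3, a beta tubulin best known from neurons, had 72.2, 91.4 and 91.8 CPM in treated cells, against 167, 167 and 191 CPM in untreated cells, with 35.8% of exon bases overlapping another gene, and TUBE1, the epsilon tubulin of centrioles, rose by 1.10.

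Of 18 KLF and SP zinc finger factors, 11 rose (61.1%, against 23.3% of all tested genes) and 3 fell (16.7%, against 25.0%). The median was 0.28, and 7 rose and 0 fell with the MKN1 libraries in the fit. KLF2 (ENSG00000127528, GRCh38 chr19:16324817-16327874, plus strand), known in endothelium and T cells as a quiescence factor and as a target of the ERK5 kinase through MEF2 factors, had 23.7, 27.7 and 24.2 CPM in treated cells, against 3.63, 3.52 and 4.69 CPM in untreated cells (log2 fold change 2.68, SE 0.13, adjusted p = 5.85e-06). KLF7 rose to 25.8, 33.8 and 26.6 CPM in treated cells, against 9.07, 12.7 and 12.8 CPM in untreated cells, KLF10, which TGF-beta induces, rose by 1.16, and KLF6 by 0.78. KLF4 and KLF5, factors of gut epithelium, rose by 0.54 and 0.64. SP2, SP4 and KLF16 fell, with log2 fold changes of −0.48, −0.32 and −0.41, and none of these 3 passed with the MKN1 libraries in the fit. Of 7 genes on the MEF2 axis, 1 rose (14.3%, against 23.3% of all tested genes) and 3 fell (42.9%, against 25.0%). But 2 rose without treated replicate 1, and 1 fell without treated replicate 1 or 3 or untreated replicate 2 or 3. MAPK7, which encodes ERK5, fell by 0.59 and MAP3K2, a kinase upstream of it, rose by 0.38. MEF2A did not pass (0.21), and MEF2D, with −0.20, did not pass without treated replicate 1 or 3 or untreated replicate 2 or 3, or with the MKN1 libraries in the fit.

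Immediate early and ERK feedback genes went both ways. Of 23 AP-1 and immediate early genes, 4 rose (17.4%, against 23.3% of all tested genes) and 9 fell (39.1%, against 25.0%). In the fit with the MKN1 libraries, 0 rose and 4 fell. JUND had 54.2, 43.0 and 44.2 CPM in treated cells, against 118, 106 and 137 CPM in untreated cells (log2 fold change −1.35, SE 0.11, adjusted p = 3.19e-05), FOSB fell by 1.16, FOS fell by 0.52 and the nuclear receptor NR4A1 fell by 0.71. JUN, FOSL1 and EGR1 did not pass, with log2 fold changes of −0.004, −0.24 and −0.076. MYC rose to 142, 136 and 150.2 CPM in treated cells, against 95.7, 82.8 and 86.0 CPM in untreated cells (log2 fold change 0.69, SE 0.071, adjusted p = 8.3e-05). Of 17 MAP kinase phosphatase and ERK feedback genes, 4 rose (23.5%) and 6 fell (35.3%). The ERK phosphatase DUSP6 and the feedback inhibitors SPRY1 and SPRED1 rose by 0.58, 0.92 and 0.63, while DUSP10 and DUSP16, which act on the stress kinases JNK and p38, fell, with log2 fold changes of −0.96 and −0.56. Neither MYC, NR4A1 nor DUSP6 passed with the MKN1 libraries in the fit.

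Receptor and growth factor genes showed a similar division. Of 18 receptor tyrosine kinase and ligand genes, 8 rose (44.4%, against 23.3% of all tested genes) and 5 fell (27.8%, against 25.0%). EGFR had 141, 195 and 138 CPM in treated cells, against 79.5, 106 and 96.3 CPM in untreated cells, MET rose by 0.51, and the EGFR ligands BTC and TGFA rose by 0.98 and 0.44, though TGFA did not pass with the MKN1 libraries in the fit. FGFR4 had 16.03, 14.9 and 16.1 CPM in treated cells, against 30.6, 33.7 and 42.0 CPM in untreated cells (log2 fold change −1.18, SE 0.11, adjusted p = 6.13e-05). The number that fell was 3 without treated replicate 1, treated replicate 3 or untreated replicate 3, and 2 after the GC and length trends were taken out. Of 28 TGF-beta and BMP genes, 9 rose (32.1%, against 23.3% of all tested genes) and 5 fell (17.9%, against 25.0%). TGFBR2, the type II receptor, was at 162, 150.4 and 149.6 CPM in treated cells, against 82.5, 85.6 and 79.2 CPM in untreated cells, and the inhibitor SMAD6 at a log2 fold change of −0.998. Without treated replicate 1, 3 of these genes fell, and 3 rose and 3 fell with the MKN1 libraries in the fit. ID3, a BMP target, had 8.59, 6.91 and 11.5 CPM in treated cells, against 24.4, 11.5 and 13.7 CPM in untreated cells, and did not pass without treated replicate 1, treated replicate 2 or untreated replicate 1.

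Among 20 circadian clock genes, 6 rose (30%, against 23.3% of all tested genes) and 3 fell (15%, against 25.0%). The heme-binding repressor NR1D1 had 16.2, 18.4 and 18.1 CPM in treated cells, against 7.47, 7.47 and 8.72 CPM in untreated cells (log2 fold change 1.16, SE 0.11, adjusted p = 5.24e-05), and its relative NR1D2 had 104, 109 and 99.7 CPM in treated cells, against 57.7, 57.4 and 53.6 CPM in untreated cells. CLOCK, BMAL1, CRY1 and PER2 did not pass, and BMAL2 rose by 0.48. The number that fell was 0 without treated replicate 1 or untreated replicate 1 and 1 without treated replicate 3 or untreated replicate 3, and PER1 (−0.44) was among those lost. BMAL2 and PER1 did not pass with the MKN1 libraries in the fit.

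Most targets of the tumour suppressor p53 fell. Of 29 genes, 2 rose (6.90%, against 23.3% of all tested genes) and 18 fell (62.1%, against 25.0%), with a median of −0.38. CDKN1A, the p21 inhibitor of cyclin-dependent kinases, had 140.2, 189.7 and 151 CPM in treated cells, against 289, 314 and 345 CPM in untreated cells (log2 fold change −0.98, SE 0.11, adjusted p = 0.000147). BAX, which permeabilises mitochondria, had 139, 123 and 135 CPM in treated cells, against 250.3, 232 and 309.7 CPM in untreated cells. FDXR, SFN, BTG2 and PPM1D fell, with log2 fold changes of −0.92, −0.90, −0.79 and −0.71, and MDM2 fell by 0.21. TNFRSF10B, a TRAIL receptor, and XPC, a DNA repair protein, rose by 0.29 and 0.60. BBC3, PMAIP1 and GDF15 did not pass. After the GC and length trends were taken out, 17 fell. MDM2 and TNFRSF10B did not pass with the MKN1 libraries in the fit.

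The BCL2 family and caspases overlap this list in BAX, BBC3 and PMAIP1. Of 31 tested, 6 rose (19.4%, against 23.3% of all tested genes) and 16 fell (51.6%, against 25.0%). On the side that promotes death, BAD, BIK, FADD and CASP9 fell, with log2 fold changes of −0.86, −0.85, −0.79 and −0.50, with 54.9% of the exon bases of FADD overlapping another gene. On the side that restrains it, MCL1, CFLAR, XIAP and BCL2L1 rose by 0.46, 0.66, 0.31 and 0.27. BIRC5, which encodes survivin, fell by 0.61, and CASP4 rose by 0.40. In the fit with the MKN1 libraries, 1 rose and 9 fell, and MCL1, XIAP, BCL2L1 and CASP4 did not pass.

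Proliferation genes were moderately lower. Of 37 DNA replication genes, 2 rose (5.41%, against 23.3% of all tested genes) and 22 fell (59.5%, against 25.0%), with a median of −0.25. Only 1 rose without treated replicate 3, and 12 fell with the MKN1 libraries in the fit. TK1 and TYMS, which make thymidine nucleotides, fell, with log2 fold changes of −0.94 and −0.80, and PCNA, the sliding clamp, fell by 0.48. FEN1 and LIG1, which finish lagging strands, fell, with log2 fold changes of −0.73 and −0.71. CCNE2 rose by 0.41, and the MCM helicase genes MCM3 and MCM6 did not pass. Of 38 mitosis genes, 4 rose and 19 fell (median −0.18), with 2 higher without treated replicate 1 or untreated replicate 2 and 28 lower after the GC and length trends were taken out. CDC20, the activator of the anaphase-promoting complex, had 72.8, 65.5 and 76.2 CPM in treated cells, against 142, 126 and 146 CPM in untreated cells, and PLK1 and FOXM1 fell, with log2 fold changes of −0.78 and −0.75. MKI67, the Ki-67 gene, fell by 0.30, and TOP2A and CDK1 did not pass (0.07 and −0.16). Among 19 G1 cyclin and CDK inhibitor genes, 6 rose (31.6%, against 23.3% of all tested genes) and 4 fell (21.1%, against 25.0%). RBL2, the p130 pocket protein of resting cells, had 49.1, 55.0 and 51.7 CPM in treated cells, against 23.3, 24.2 and 22.5 CPM in untreated cells (log2 fold change 1.15, SE 0.067, adjusted p = 8.86e-06), CDK4 fell by 0.58 and CCND1 rose by 0.23. PCNA, CCNE2, MKI67 and CCND1 did not pass with the MKN1 libraries in the fit.

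Interferon and MHC class I genes rose in part. Of 37 tested, 15 rose (40.5%, against 23.3% of all tested genes) and 5 fell (13.5%, against 25.0%), with a median of 0.13. SLFN5, an interferon-inducible Schlafen protein, had 94.2, 122 and 90.2 CPM in treated cells, against 19.8, 24.3 and 19.3 CPM in untreated cells (log2 fold change 2.28, SE 0.13, adjusted p = 8.35e-06). ERAP1 and ERAP2, which trim peptides for MHC class I, rose by 0.90 and 0.98, and IFIT2 and STAT2 by 0.67 and 0.50. HLA-B, HLA-C and B2M did not pass, and TAP1, the peptide transporter, fell by 0.45. The number that fell was 3 without treated replicate 1 or treated replicate 3, and 5 rose with the MKN1 libraries in the fit. Of 23 chemokine, cytokine and NF-kB feedback genes, 8 rose (34.8%, against 23.3% of all tested genes) and 7 fell (30.4%, against 25.0%). CXCL1 and CXCL3 rose by 0.75 and 0.76, BIRC3 by 0.73 and LIF by 0.62, whereas CXCL8 fell by 0.50. IFIT2, LIF and CXCL8 did not pass with the MKN1 libraries in the fit.

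Amino acid and tRNA charging genes went both ways. Of 29 ATF4 pathway and amino acid synthesis genes, 5 rose (17.2%, against 23.3% of all tested genes) and 11 fell (37.9%, against 25.0%). The transporters SLC1A5 and SLC7A5 fell, with log2 fold changes of −0.72 and −0.36, and the synthesis enzymes PSPH and PYCR3 fell, with log2 fold changes of −0.57 and −0.63. DDIT3, which encodes CHOP, fell by 0.38. PYCR3 did not pass after the GC and length trends were taken out. TRIB3 and PPP1R15A, a pair of stress feedback genes, rose by 0.87 and 0.46, and ATF4, ASNS and PSAT1 did not pass. After the GC and length trends were taken out 8 rose and 5 fell, and with the MKN1 libraries in the fit 0 rose and 1 fell, with SLC1A5, SLC7A5, PSPH, DDIT3, TRIB3 and PPP1R15A among those lost, so the split of this list depended on the setting. Of 20 cytosolic aminoacyl-tRNA synthetases, 9 rose (45%, against 23.3% of all tested genes) and 6 fell (30%, against 25.0%). AARS1, the alanyl enzyme, had 481, 458 and 442 CPM in treated cells, against 253, 269.6 and 258 CPM in untreated cells, IARS1 rose by 0.60 and LARS1 by 0.59, while FARSA fell by 0.61. The number that fell was 3 without any 1 of the treated replicates or without untreated replicate 1, and 2 rose with the MKN1 libraries in the fit, neither AARS1 nor IARS1 among them.

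Of 42 autophagy and lysosome genes, 13 rose (31.0%, against 23.3% of all tested genes) and 14 fell (33.3%, against 25.0%). Among the members, the conjugation and membrane genes MAP1LC3B, ATG2B, WIPI1 and BECN1 rose by 0.51, 0.68, 0.95 and 0.47. The lysosomal hydrolases NEU1, GLA and CTSD fell, with log2 fold changes of −1.06, −0.91 and −0.47, and the cargo receptor SQSTM1 fell by 0.59. The number that fell was 7 after the GC and length trends were taken out. Of 25 vacuolar ATPase genes, 2 rose (8.0%, against 23.3% of all tested genes) and 12 fell (48.0%, against 25.0%). ATP6V0B, a proteolipid subunit of the membrane ring, had 42.8, 35.7 and 39.3 CPM in treated cells, against 68.2, 63.8 and 83.0 CPM in untreated cells. Only 1 rose without treated replicate 1 or 2 or untreated replicate 2 or 3.

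Of 25 noncoding hosts of small nucleolar RNAs, 10 rose (40.0%, against 23.3% of all tested genes) and 1 fell (4.0%, against 25.0%). Their spliced transcripts are degraded by nonsense-mediated decay during translation. SNHG32 had 77.8, 74.0 and 70.5 CPM in treated cells, against 30.2, 28.99 and 34.8 CPM in untreated cells, with 29.1% of exon bases overlapping another gene, and SNHG1 had 141, 127 and 147 CPM in treated cells, against 84.8, 74.8 and 80.3 CPM in untreated cells. Of 30 SR splicing factors and splicing kinases, 11 rose (36.7%, against 23.3% of all tested genes) and 5 fell (16.7%, against 25.0%). RSRP1 rose by 0.97, the kinase CLK2 by 0.71 and PNISR, which did not pass with the MKN1 libraries in the fit, by 0.58, and SRSF3 and SRSF9 fell, with log2 fold changes of −0.51 and −0.59. The number that fell was 3 without any 1 of the treated replicates or without untreated replicate 1 or 2. Only 3 rose and 2 fell with the MKN1 libraries in the fit.

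Transcription machinery and chromatin regulators moved by small amounts. Of 43 RNA polymerase II and Mediator genes, 6 rose (14.0%, against 23.3% of all tested genes) and 20 fell (46.5%, against 25.0%). The median was −0.22. POLR2A, the catalytic subunit, had 140.2, 135 and 133 CPM in treated cells, against 227, 222 and 209.7 CPM in untreated cells (log2 fold change −0.69, SE 0.059, adjusted p = 3.53e-05), and POLR2L, a small shared subunit, fell by 1.23. Of 42 histone methylation and acetylation regulators, 10 rose (23.8%, near the 23.3% of all tested genes) and 16 fell (38.1%, against 25.0%). The counts were 2 higher and 8 lower with the MKN1 libraries in the fit. KDM7A, a histone demethylase, was up by a log2 fold change of 1.10 and EZH1 by 0.67, and KAT2A and SETD1A were at log2 fold changes of −0.53 and −0.51. Of 25 replication-dependent histone genes, which lack the poly(A) tail on which mRNA selection relies, 4 rose and 0 fell, and 1 fell without treated replicate 1. H2AC6, the most abundant of those that rose, had 9.41, 7.996 and 9.32 CPM in treated cells and 4.45, 5.54 and 4.92 CPM in untreated cells. The 386 zinc finger genes of the ZNF series lay at the background, with 77 higher, 80 lower and a median of 0.0051.

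Of 26 gastric and intestinal lineage genes, 7 rose (26.9%) and 6 fell (23.1%), near the 23.3% and 25.0% of all tested genes. EHF, an epithelial ETS factor, had 23.1, 33.0 and 27.3 CPM in treated cells, against 7.90, 8.90 and 7.88 CPM in untreated cells (log2 fold change 1.76, SE 0.13, adjusted p = 2.28e-05). LGALS4, an intestinal galectin, rose to 43.3, 42.6 and 48.6 CPM in treated cells, against 24.1, 20.7 and 23.3 CPM in untreated cells, and TFF1, the gastric surface trefoil peptide, and MUC1 rose by 0.82 and 0.65. GATA4, a foregut factor, fell to 68.9, 65.3 and 69.7 CPM in treated cells, against 129.7, 133 and 139.9 CPM in untreated cells, and SOX2, a stem cell and foregut factor, fell by 0.84. TFF1 and SOX2 did not pass with the MKN1 libraries in the fit. GATA6, CDX2 and HNF4A did not pass. Of 16 keratins, 5 rose (31.25%, against 23.3% of all tested genes) and 2 fell (12.5%, against 25.0%). Those that rose each had both group means under 5 CPM. Fewer keratins rose without treated replicate 1 (3), treated replicate 2 (1), untreated replicate 1 (2) or untreated replicate 2 (2). KRT19 had 398, 489 and 442 CPM in treated cells, against 681, 692 and 847 CPM in untreated cells, while its partners KRT8 and KRT18 did not pass. Of 27 ion channel and calcium transport genes, 8 rose (29.6%, against 23.3% of all tested genes) and 6 fell (22.2%, against 25.0%). TRPV6, the calcium entry channel of absorptive epithelium, had 24.0, 35.1 and 26.9 CPM in treated cells, against 6.21, 6.196 and 6.22 CPM in untreated cells (log2 fold change 2.21, SE 0.14, adjusted p = 1.3e-05), TRPM7 rose by 0.65, and ITPR1 (0.62) did not pass without any 1 of the treated replicates, or with the MKN1 libraries in the fit.

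Across all genes, the 12 largest increases and 12 largest decreases were taken among protein-coding genes of at least 10 CPM with no overlap between groups, so their size and separation describe how they were chosen. TXNIP, which binds thioredoxin and curbs glucose uptake, had 147, 143 and 133 CPM in treated cells, against 46.4, 28.3 and 32.4 CPM in untreated cells, and did not pass with the MKN1 libraries in the fit (adjusted p = 0.0625). GPCPD1, a glycerophosphocholine phosphodiesterase, was among the increases, with 154, 171 and 162 CPM in treated cells, against 47.3, 44.0 and 46.3 CPM in untreated cells (log2 fold change 1.82, SE 0.064, adjusted p = 1.13e-06). TGM2, the tissue transglutaminase, had 105.5, 106 and 106 CPM in treated cells, against 36.3, 27.4 and 30.2 CPM in untreated cells (log2 fold change 1.76, SE 0.094, adjusted p = 6.02e-06). In TGM2 the treated libraries lay within 1 CPM of each other. PHLDB2, a cortical protein that binds phosphoinositides, had 569.9, 735 and 559 CPM in treated cells, against 182, 196 and 178 CPM in untreated cells, and ADGRF1, an adhesion receptor, had 18.03, 23.4 and 17.999 CPM in treated cells, against 5.14, 5.12 and 5.30 CPM in untreated cells. KLF2, SLFN5, TRPV6, CCN2, EHF and ANKRD1, described with their lists, belong to the same set.

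The decreases hold several genes of other kinds. NHERF1, a scaffold of the apical membrane, had 15.3, 12.96 and 15.7 CPM in treated cells, against 41.7, 38.2 and 48.2 CPM in untreated cells (log2 fold change −1.54, SE 0.11, adjusted p = 1.7e-05). ZSCAN5A, a zinc finger protein, had 4.19, 4.45 and 5.96 CPM in treated cells, against 19.0, 14.3 and 18.1 CPM in untreated cells, and CELSR3, a cadherin of planar polarity, had 8.29, 8.96 and 9.68 CPM in treated cells, against 26.8, 25.1 and 23.7 CPM in untreated cells. FAM174C had 7.68, 6.98 and 9.90 CPM in treated cells, against 21.4, 19.3 and 25.0 CPM in untreated cells. CFAP410 and INKA2 fell, with log2 fold changes of −1.93 and −1.53, but 60.4% and 91.3% of their exon bases overlap other genes, so their values are uncertain. The same holds for 2 genes without a symbol. ENSG00000285816, with 91.6% of exon bases overlapping, had a log2 fold change of −2.48, and ENSG00000255508, with 83.9% overlapping, had 48.5, 395 and 253 CPM in treated cells, against 11.1, 19.2 and 20.7 CPM in untreated cells. Its treated libraries spread more widely than those of any other gene in this set.

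**Figure D4:**
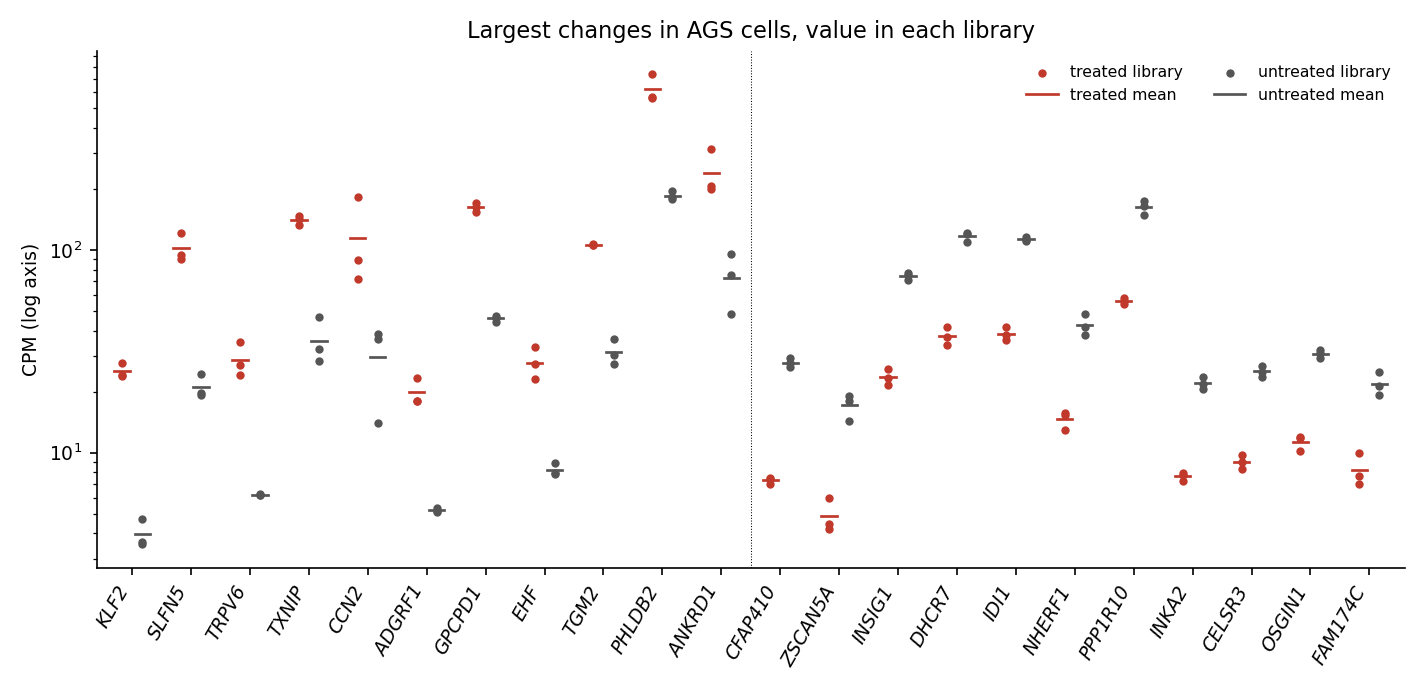
CPM on a log axis in each AGS library for the genes with symbols among the 12 largest increases (left of the dotted line) and 12 largest decreases (right). For each gene the treated libraries (red) stand left of the untreated libraries (grey), points are libraries and short lines are group means. CCN2, ANKRD1 and TXNIP show the widest spread within a group.

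A second choice went by the difference in mean CPM, among genes that passed, did not overlap between groups and had a log2 fold change of at least 0.5 in size. Abundant genes of smaller fold, such as MT-CO1, lie outside it, and PHLDB2 belongs to both choices. NEAT1, the long noncoding RNA that builds nuclear paraspeckles, had 2339, 1825 and 2074 CPM in treated cells, against 593, 529 and 494 CPM in untreated cells (log2 fold change 1.95, SE 0.10, adjusted p = 6.02e-06). ERRFI1, a feedback inhibitor of EGFR, had 770.1, 1208 and 917 CPM in treated cells, against 391, 511 and 425 CPM in untreated cells, and TNS4, an integrin-binding tensin, had 1164, 1357 and 1166 CPM in treated cells, against 668, 732 and 711 CPM in untreated cells. On the side of the decreases, FTL, the ferritin light chain, had 2843, 2829.6 and 2894 CPM in treated cells, against 4285, 4330.3 and 4940.1 CPM in untreated cells. CST1, a secreted cysteine protease inhibitor, had 1067, 899 and 1029 CPM in treated cells, against 1821, 1824 and 2309.5 CPM in untreated cells, and PTMA, the prothymosin gene, had 1062, 896 and 1082 CPM in treated cells, against 1680.3, 1649 and 1767 CPM in untreated cells. ENO1 had 1242, 1176 and 1301 CPM in treated cells, against 1992, 1803 and 2179 CPM in untreated cells. GAPDH, PKM, HSPA8 and CALR, described with their pathways, complete the named decreases in abundance.

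The response of AGS cells differed from that of MKN1 cells for most of the genes with the largest changes. In 1 fit over all 12 libraries, 15.7% of 20280 tested genes had a different treatment effect in the 2 lines. Of the 24 genes named for the size of their change in AGS, 22 did, a count that the choice by AGS size raises and that is given as a description. TGM2 had a log2 fold change of 1.76 in AGS cells and −1.45 in MKN1 cells, a difference of 3.21 (SE 0.21, adjusted p = 1.64e-05). Its level in MKN1 cells was 31.9, 41.6 and 33.9 CPM in treated libraries, against 82.5, 97.8 and 114 CPM in untreated libraries. ANKRD1 had 1.73 in AGS cells and −2.76 in MKN1 cells, and its MKN1 levels were 5.19, 5.97 and 6.89 CPM in treated libraries, against 56.8, 54.2 and 11.8 CPM in untreated libraries. For both genes the change in MKN1 passed on its own, in the opposite direction (adjusted p = 0.000605 and 0.00707). PPP1R10 and DHCR7 crossed the other way, with −1.54 and −1.63 in AGS cells and 0.82 and 0.81 in MKN1 cells (adjusted p in MKN1 = 0.00557 and 0.00596). DHCR7 in MKN1 cells had 72.3, 58.2 and 84.6 CPM in treated libraries, against 38.9, 43.6 and 40.3 CPM in untreated libraries. For KLF2, SLFN5 and TRPV6 the MKN1 change did not pass, at 0.36 (SE 0.18), 0.032 (SE 0.39) and 0.25 (SE 0.28). TXNIP and ENSG00000255508 did not differ past the threshold (adjusted p = 0.116 and 0.0866). Without MKN1 treated replicate 2 both did (adjusted p = 0.0134 and 0.0153). INKA2 no longer differed without any 1 of the treated AGS replicates, AGS untreated replicate 1 or 2, or MKN1 untreated replicate 2, and ADGRF1 without AGS treated replicate 2.

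**Figure D5:**
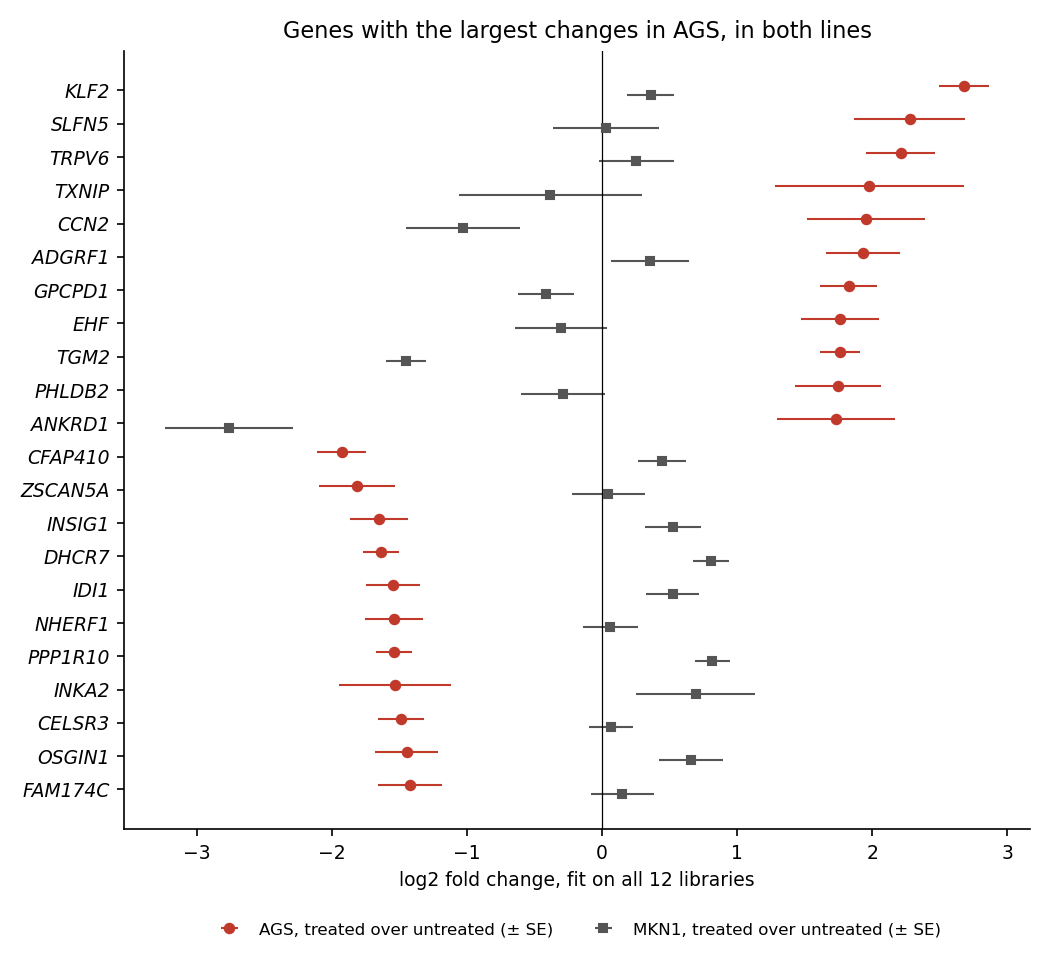
Log2 fold change of treated over untreated cells for the named genes with symbols, in AGS (red circles) and MKN1 (grey squares), from 1 fit over 12 libraries, with standard errors as bars. TGM2 and ANKRD1 lie above 0 in AGS and below 0 in MKN1, and DHCR7 and PPP1R10 lie below 0 in AGS and above 0 in MKN1.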

How the data were processed

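RNA was extracted with TRIzol and made into libraries with the NEBNext Ultra RNA kit, which does not mark strand, per the labels' protocols. Reads were aligned to GRCh38 (hg38) with HISAT2 2.0.4, per the submitters' processing notes. No source used here states the counting tool, annotation or strand setting. The authors deposited unnormalized whole-number counts for each gene, per the file's values.

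Genes were filtered with filterByExpr over the 2 AGS groups, scaled by trimmed means (TMM) and tested with edgeR 4.0.16 (R 4.3.3) by the quasi-likelihood F test on the 6 AGS libraries, with Benjamini-Hochberg adjustment and a threshold of 0.05. Standard errors are the log2 fold change divided by the square root of F. AGS and MKN1 effects were compared by an interaction term over 12 libraries. On simulated counts for 16870 genes, 200 of them changed, this test recovered 72% of genes changed 2-fold and 51% of those changed 1.5-fold, with 9 false calls. Far more genes passed in the data (48.2%), so these figures do not describe its calls. No 2 libraries of a group were as alike as counting noise (lowest chi-square per degree of freedom 9.78). Symbols, positions and exon overlaps come from GENCODE 29, promoters from RefSeq. Intervals and floors cover counting error only.

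The comparison, the 46 gene lists and the rules were chosen with earlier results of these data known. Named genes are the 12 largest increases and decreases among protein-coding genes of at least 10 CPM with no overlap between groups, the 8 largest rises and drops in CPM with no overlap and a log2 fold change of at least 0.5 in size, up to 4 members of each list with the largest change at 5 CPM or more, and the catalytic subunits. Other members were named for their role after their values were seen. Alternatives were other scalings, DESeq2 1.42.0, limma 3.58.1, other filters, a fit with MKN1, removal of GC and length trends, a block on replicate number and leaving out each library. Some genes counted in the lists are not reported here by name.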

Additional observations from a re-analysis of the deposited data

Results flagged for a closer look

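The treatment effect differed between AGS and MKN1 cells, by the interaction test over 12 libraries, for 22 of the 24 genes named for the size of their change in AGS. These genes were chosen by their AGS change, which raises the number that differ, and 15.7% of all genes tested differed. Among genes higher in treated AGS cells, the AGS effect minus the MKN1 effect on the log2 scale was 4.496 for ANKRD1, 3.21 for TGM2, 2.98 for CCN2 and 2.32 for KLF2. It was 2.25 for SLFN5, 2.24 for GPCPD1, 2.07 for EHF, 2.04 for PHLDB2, 1.96 for TRPV6 and 1.58 for ADGRF1. Among genes lower in treated AGS cells, the largest differences were −2.44 for DHCR7, −2.37 for CFAP410, −2.36 for PPP1R10 and −2.28 for ENSG00000285816. The difference was −2.22 for INKA2, −2.18 for INSIG1, −2.10 for OSGIN1, −2.07 for IDI1 and −1.86 for ZSCAN5A. It was −1.60 for NHERF1, −1.57 for FAM174C and −1.55 for CELSR3. Groups of 3 libraries are too small for a test of single outlying samples.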

How the results depend on the processing

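Under 16 alternative settings of the AGS comparison, including DESeq2 (7934 genes past the threshold), limma voom (8389) and no filter on low counts (7751), genes called in both settings had the same direction, except for 3 when the GC and length trends were taken out. With all 12 libraries in the fit 4214 genes passed, 1867 higher and 2347 lower, and 3987 of them passed in the same direction in the fit on AGS alone. That fit tested 20280 genes and estimates the spread from both lines, and 65 of 92 list counts then moved by more than 1.5 times. Requiring at least 5 CPM in 3 libraries left 348 genes past ±1 on the log2 scale, 199 higher and 149 lower, since rare genes were not tested. Leaving out 1 library gave 7146 to 7577 genes past the threshold (3425 to 3609 higher, 3721 to 3968 lower), and 1521 to 1705 with the larger change (651 to 775 higher, 870 to 984 lower). The number of named genes that differed between lines was 20 to 24. The log2 fold change of PPP2CA, not past the threshold, was −0.12 with the GC and length trends taken out, and that of PPP2CB was −0.025 without treated replicate 2 and 0.041 without treated replicate 3; the cause was not tested. The replicate numbers did not pair the samples (deviations of same-numbered samples correlated at 0.0527, 0.106 and −0.0625, and 2 of 3 treated libraries correlated best with their own number), and with a replicate block 8352 genes passed. The depth of 32772339 to 51604215 counts puts 3 counts at 0.0581 to 0.0915 CPM, so drops of genes near that level are not sized.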

Other observations

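Transcripts abundant in MKN1 (90 genes of at least 100 CPM there and under 1 CPM in AGS) were summed in each AGS library. These transcripts stood at 0.0809%, 0.0737% and 0.0687% of their MKN1 level in treated libraries, against 0.057%, 0.0634% and 0.0602% in untreated libraries. The choice of genes under 1 CPM in AGS keeps these shares low, and transcripts made by AGS cells may enter them. The part of MKN1 RNA in them was not tested. Of the 90 genes, 26 were tested, 5 were higher and 3 lower in treated cells. Over all 17345 tested genes, 23.3% were higher and 25.0% lower, both larger shares than among these 26.

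TSPOAP1, which encodes a TSPO-associated protein, had 0.425, 0.506 and 0.36 CPM in treated cells, against 16.2, 14.1 and 13.1 CPM in untreated cells. The raw counts of HBB were 0, 3 and 0 in treated libraries, against 958, 297 and 265 in untreated libraries. Processed pseudogenes had 199 higher (24.8%) and 50 lower (6.22%) of 804 tested, and protein-coding genes 3155 higher (24.0%) and 3769 lower (28.7%) of 13140. Over all tested genes 23.3% were higher and 25.0% lower, so the pseudogenes departed from that mainly in the share lower.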
